A study of Mus musculus with 22 samples.

Results

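The integrated stress response (ISR) was described in Ts66Yah mice through 10 genes, Atf4, Ddit3, Trib3, Asns, Chac1, Sesn2, Ppp1r15a, Ppp1r15b, Eif2ak3 and Eif2ak4, out of the 55385 genes of the count table. They were taken by name, as the kinases, transcription factors, output genes and phosphatase subunits of the pathway, and not by their values, and all 10 had enough counts to be tested in each comparison. The data are RNA-Seq read counts from 11 adult male mice, 5 wild type (wt) and 6 Ts66Yah. Hippocampus (HIP) and entorhinal cortex (EC) were taken from each animal, which makes 22 libraries. Ts66Yah mice model Down syndrome. They carry, as a freely segregating minichromosome, an additional copy of the distal part of mouse chromosome 16 (Mmu16), while the centromeric part of Mmu17 present on the parental Ts65Dn minichromosome has been deleted. The wt mice were control littermates without the minichromosome. Both genotypes were bred on a mixed B6C3B background, and the labels name no treatment. The colony descends from 1 founder, a mosaic male, so that the line rests on a single deletion event. None of the 10 genes lies on Mmu16 or Mmu17.

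In the ISR, kinases that sense different stresses phosphorylate the translation initiation factor eIF2 on its alpha subunit. Phosphorylated eIF2 lowers general protein synthesis but favours translation of the transcription factor ATF4, which, with CHOP (the product of Ddit3), raises transcription of genes for amino acid supply, redox balance and feedback control. In the brain the pathway is best known as a brake on the protein synthesis needed for long-term memory. Counts measure messenger RNA only. They hold no measure of eIF2 phosphorylation or of translation, the steps at which the kinases, the phosphatases and Atf4 are mainly regulated.

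The members fall into 4 roles. The transcription factor genes are Atf4 (chromosome 15, 80255184 to 80257541, plus strand) and Ddit3 (chromosome 10, 127290774 to 127296288, plus strand). The output genes are Trib3, a pseudokinase that feeds back on ATF4 and AKT (chromosome 2, 152337422 to 152344032, minus strand), Asns, the asparagine synthetase (chromosome 6, 7675169 to 7693254, minus strand), Chac1, a glutathione-degrading cyclotransferase (chromosome 2, 119351229 to 119354381, plus strand), and Sesn2, a leucine sensor that restrains mTORC1 (chromosome 4, 132492032 to 132510501, minus strand). The phosphatase subunit genes are Ppp1r15a, whose product GADD34 is inducible (chromosome 7, 45522916 to 45526268, minus strand), and Ppp1r15b, whose product CReP is constitutive (chromosome 1, 133131143 to 133139783, plus strand); both bring protein phosphatase 1 to eIF2. The kinase genes are Eif2ak3, encoding PERK, the sensor of unfolded proteins in the endoplasmic reticulum (chromosome 6, 70844515 to 70905245, plus strand), and Eif2ak4, encoding GCN2, the sensor of uncharged tRNA (chromosome 2, 118388618 to 118475234, plus strand). Coordinates are of build GRCm38 with the GENCODE M21 annotation, and values are counts over the exons of each gene.

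Promoter sequence was available for 9 of the 10 members, all but Ppp1r15b, as RefSeq windows on GRCm38.p6 from 250 bases before to 50 bases after the start site. The windows were searched on both strands for TTNCATCA (reverse complement TGATGNAA), the C/EBP-ATF type of composite element that ATF4 is known to bind. Asns, Chac1 and Trib3 held 1 match each, that is 3 of 9 members (33.3%), against 4.51% of the 27025 genes with a window (3.97% of 32851 windows, since some genes, Eif2ak4 among them, have more than 1). These windows are shown because they belong to the members with a match. The match is in capitals and each sequence reads 5′ to 3′ on the strand of the gene. The Asns window is chr6:7693160-7693459 (minus strand), the Chac1 window chr2:119350992-119351291 (plus strand) and the Trib3 window chr2:152344011-152344310 (minus strand).
Asns: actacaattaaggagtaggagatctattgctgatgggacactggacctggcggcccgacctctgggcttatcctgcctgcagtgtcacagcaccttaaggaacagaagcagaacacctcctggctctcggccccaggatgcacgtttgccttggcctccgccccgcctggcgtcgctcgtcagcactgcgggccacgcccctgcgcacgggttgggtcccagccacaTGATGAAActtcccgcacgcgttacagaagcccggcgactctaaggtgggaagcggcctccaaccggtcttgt
Chac1: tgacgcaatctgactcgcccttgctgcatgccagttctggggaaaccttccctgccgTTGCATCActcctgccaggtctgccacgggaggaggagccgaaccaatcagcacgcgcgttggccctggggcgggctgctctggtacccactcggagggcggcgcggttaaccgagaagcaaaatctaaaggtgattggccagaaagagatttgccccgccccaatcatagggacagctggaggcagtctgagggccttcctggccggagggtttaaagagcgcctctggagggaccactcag
Trib3: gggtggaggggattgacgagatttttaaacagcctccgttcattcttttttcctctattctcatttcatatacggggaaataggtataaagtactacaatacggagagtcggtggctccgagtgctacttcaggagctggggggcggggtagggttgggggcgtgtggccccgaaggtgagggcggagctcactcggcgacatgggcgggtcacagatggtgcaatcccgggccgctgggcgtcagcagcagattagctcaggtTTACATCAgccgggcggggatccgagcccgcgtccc
Counting the RefSeq start as position 0, the match in Asns lay on the opposite strand at positions -23 to -16, that in Chac1 on the strand of the gene at positions -193 to -186, and that in Trib3 on the strand of the gene at positions 14 to 21. The RefSeq starts differ from the gene ends given above: the Asns match (bases 7693225 to 7693232) lies inside the GENCODE gene, the Trib3 match (bases 152344039 to 152344046) just before it, and the Chac1 match (bases 119351049 to 119351056) before both starts. A match is a description of letters and not a measured binding site. The windows of Atf4, Ddit3, Sesn2, Ppp1r15a, Eif2ak3 and Eif2ak4 held no match to these letters.

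The libraries held 25.9 to 50.1 M counts (median 34.7 M). Over 92 genes of the triplicated Mmu16 segment, the library medians of the log2 difference to the average wt level were 0.522 to 0.622 in the Ts66Yah libraries and -0.0222 to 0.0366 in the wt libraries, so every library matched its genotype label. The region labels were checked against neuronal markers: Prox1, of dentate granule cells, had a mean of 119 CPM (counts per M counts of a library) in wt HIP against 11.5 in wt EC, and Lamp5, of cortical neurons, 55.2 against 249. No pair of libraries of a group agreed within sampling noise, since the chi-square per gene was at least 9.62.

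Levels of the members are given first over all 22 libraries, as CPM per kilobase of exon, so that genes of different length can be compared. Asns (42.7 CPM per kb) and Atf4 (37.8) were highest, followed by Ddit3 (12.9) and Ppp1r15b (11.9). Sesn2 (4.87), Eif2ak3 (4.45), Ppp1r15a (4.25), Chac1 (3.99) and Eif2ak4 (2.80) lay close together, and Trib3 was lowest (0.167). Only 3 steps of this order held in all 22 libraries: Atf4 above Ddit3, Ppp1r15b above Sesn2, and Eif2ak4 above Trib3. The other steps depended on the region. Sesn2 exceeded Eif2ak3 in 11 of 11 HIP and 2 of 11 EC libraries, Chac1 exceeded Eif2ak4 in 2 and 11, and Ppp1r15a exceeded Chac1 in 10 and 2, so these orders switched between HIP and EC. Asns exceeded Atf4 in 6 of 11 HIP and 11 of 11 EC libraries, Ddit3 exceeded Ppp1r15b in 5 and 10, and Eif2ak3 exceeded Ppp1r15a in 4 and 9, so in HIP these neighbours overlapped. Trib3 rested on 4 to 25 reads per library, whereas the next lowest member, Chac1, had 123 to 415, and its values are correspondingly imprecise.

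Spread within groups differed between the members, also between members of the same role. The coefficient of variation within groups was 4.87% for Eif2ak3, 6.16% for Ppp1r15b, 8.34% for Ddit3 and 8.84% for Eif2ak4. It was 10.7% for Asns, 11.8% for Ppp1r15a, 14.4% for Sesn2, 22.3% for Atf4, 29.7% for Chac1 and 36.9% for Trib3. Much of the spread of Atf4, Chac1, Sesn2 and Asns came with Ts66Yah replicate 5, described next: without it, the values were 12.3% for Atf4, 17.8% for Chac1, 10.2% for Sesn2 and 6.65% for Asns, and 6.76% for Eif2ak4 and 32.9% for Trib3. In bulk tissue, fewer cells of a type and less RNA per cell cannot be told apart.

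**Figure D1:**
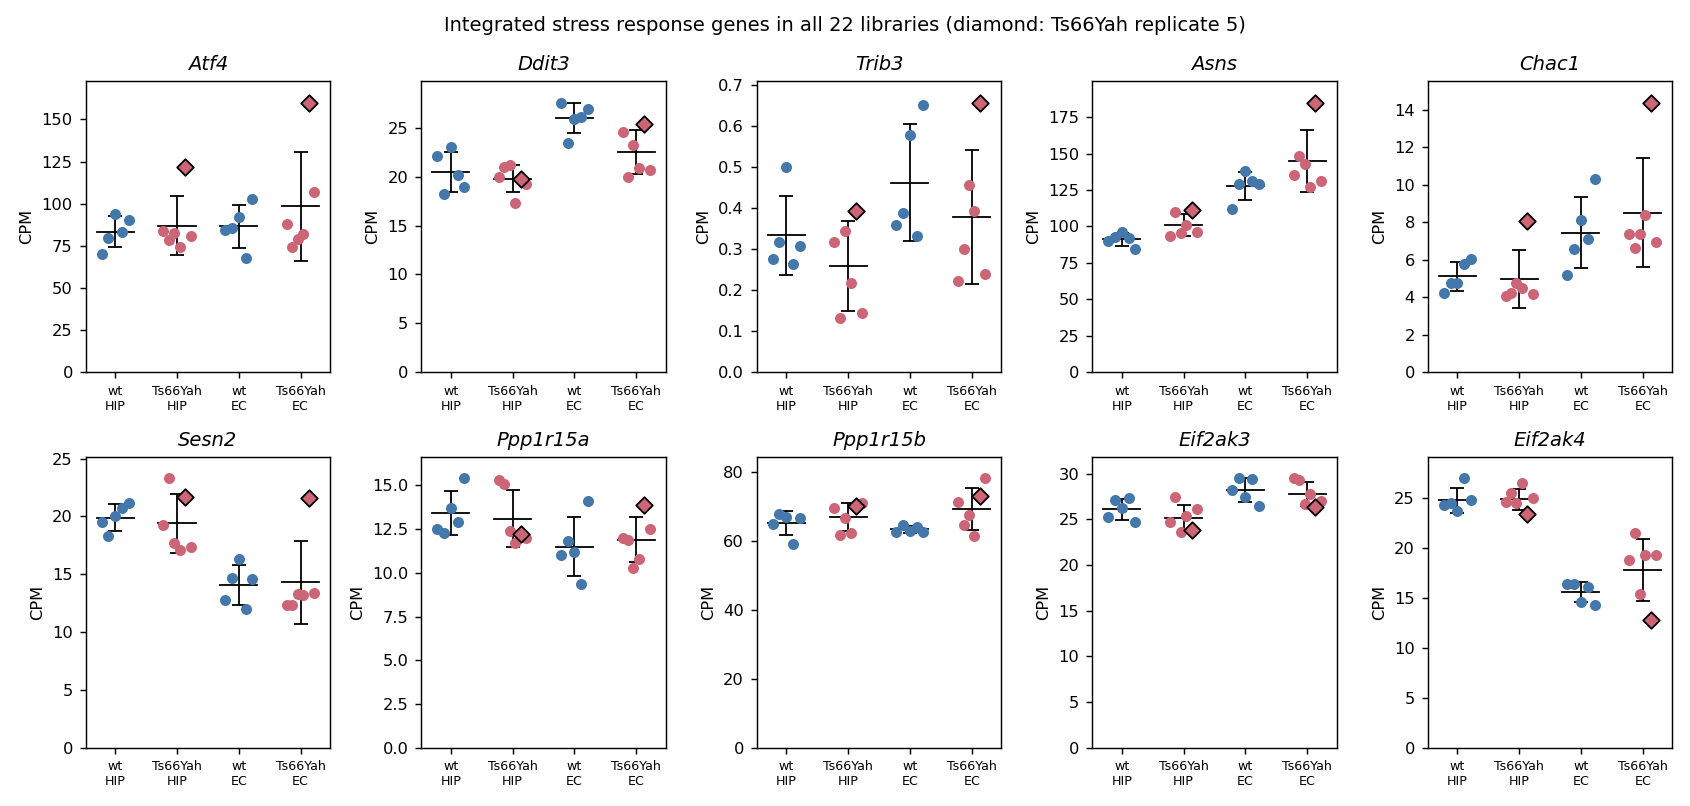
CPM (linear axis from 0) of the 10 members in the 22 libraries, 1 point per animal, in wt (blue) and Ts66Yah (red) HIP and EC; the horizontal line is the group mean and the bars are 1 SD (n = 5 wt, n = 6 Ts66Yah). The diamond is Ts66Yah replicate 5, which reaches 122 CPM of Atf4 in HIP and 160 in EC, above the other 10 animals of each region.

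One Ts66Yah animal, replicate 5, stood apart and was singled out after its values had been seen. Its Atf4 level was 122 CPM in HIP, where the other 10 animals lay between 70.2 and 93.8, and 160 CPM in EC, where they lay between 67.6 and 107. Its Chac1 level was 8.06 CPM in HIP (others 4.08 to 6.06) and 14.4 in EC (others 5.20 to 10.3). Asns was 111 CPM in HIP (others 84.7 to 110) and 185 in EC (others 112 to 148). These 3 genes were thus highest in this animal in both regions, by a wide margin in Atf4 and Chac1 and, for Asns, in EC. In EC it was also highest in Sesn2 (21.6 CPM, others 12.0 to 16.3) and Trib3 (0.657, others 0.223 to 0.650). Of the kinase genes, Eif2ak4 was lowest in this animal in HIP (23.4 CPM, others 23.7 to 27.0) and EC (12.8, others 14.3 to 21.5). Eif2ak3 was lowest in EC by a small margin (26.4, others 26.5 to 29.5) and inside the range in HIP (23.8, others 23.6 to 27.4). Over all genes tested, this animal was highest for 7.23% in HIP and 11.7% in EC. It was lowest for 10.3% in HIP and 14.6% in EC. Ddit3, at 19.8 CPM in HIP and 25.4 in EC, lay inside the range of the other animals.

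Genes outside the 10 members were compared for the same animal. Among 34 other genes known as targets of ATF4 or CHOP, 8 (23.5%) were highest of all 11 animals in both regions in Ts66Yah replicate 5: Atf5, Mthfd2, Pycr1, Shmt2, Slc1a4, Slc7a3, Slc7a5 and Stc2. The corresponding share was 1.86% of all 17232 genes tested in both regions, and no other animal held more than 2 of the 34 targets. The mitochondrial folate enzyme Mthfd2 reached 10.1 CPM in EC against 4.20 to 5.52 in the others, and Slc7a5, the leucine transporter, 107 against 58.7 to 82.2. Of 20 cytosolic tRNA synthetase genes, only some of which are known ATF4 targets, 4 (20.0%) were highest in this animal in both regions, namely Cars, Gars, Nars and Yars. Gars reached 185 CPM in EC, where the others lay between 121 and 144. Hars went the other way, being lowest of 11 in both regions (88.4 CPM in HIP, median of the others 102, and 113 in EC, median of the others 130). The summed level of the targets was highest in this animal in EC (1379 CPM, others 1184 to 1336) but inside the range in HIP (1301, others 1178 to 1420), and that of the synthetases likewise (2151, others 1732 to 1943, and 1739, others 1609 to 1775). By contrast, 1 of 25 genes of the unfolded protein response (Xbp1, 4%) and 0 of 17 genes of the eIF2 machinery were highest in both regions. The pattern was not limited to ATF4 output. Of 14 activity-regulated genes, 3 (Arc, Fos and Nr4a1, 21.4%) were highest in this animal in both regions, a share near those of the targets and synthetases. The CHOP target Tnfrsf10b was lowest in this animal in both regions, at 0.169 and 0.208 CPM.

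**Figure D2:**
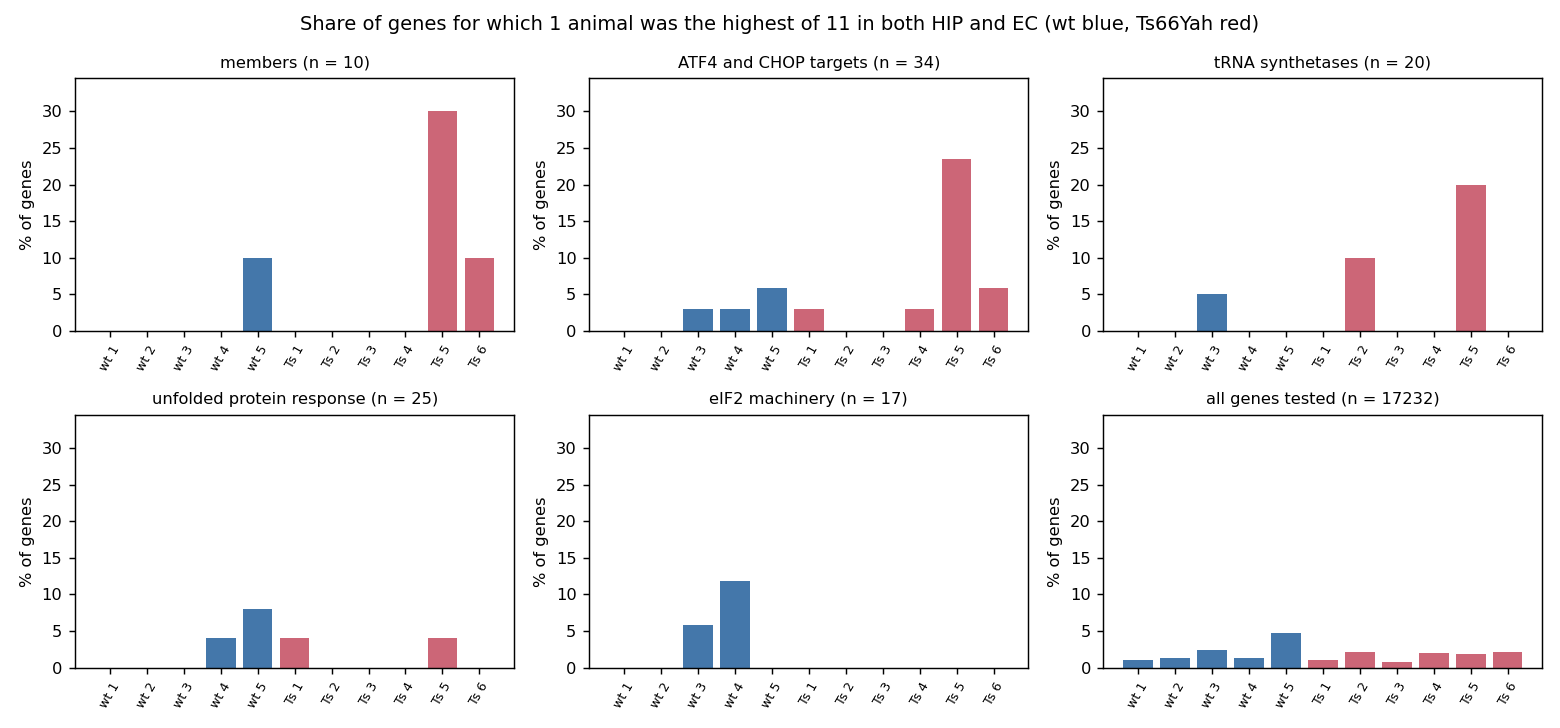
Percentage of the genes of a list (vertical axis, from 0) for which an animal was the highest of 11 in both HIP and EC, 1 bar per animal, wt in blue and Ts66Yah (Ts) in red. Ts66Yah replicate 5 holds 23.5% of the ATF4 and CHOP targets and 20.0% of the tRNA synthetase genes, against 1.86% of all genes tested. Its 30.0% of the members are Asns, Atf4 and Chac1. The animal was singled out after these member values had been seen, so that share is no separate result. Activity-regulated genes (21.4% in this animal) are not shown.

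Other measures also moved in Ts66Yah replicate 5. Its mitochondrial share of counts was the highest of each region, 4.85% in HIP and 6.18% in EC (all libraries 3.68% to 6.18%). The summed level of 14 activity-regulated genes, such as Fos and Arc, was the highest too, at 673 CPM in HIP (others 314 to 667) and 1565 in EC (others 236 to 1345). Its depth was 34.4 M counts in HIP, inside the range of the others, and 30.0 M in EC, where it was the lowest library by a small margin (next 30.1 M). Cell type markers also stood apart in its EC library: the summed levels were the highest of 11 for markers of cortical neurons (924 CPM, others 603 to 831), endothelial cells (401, others 276 to 380) and astrocytes (3168, others 2503 to 3110), and the lowest for meninges (66.0, others 69.8 to 204) and hippocampal neurons (144, others 150 to 189). In HIP, the sum for hippocampal neurons was the highest (1163, others 971 to 1153), and the sums of the other 7 marker lists lay inside the range of the others. The part of these measures in the Atf4, Asns and Chac1 levels was not tested. Where results moved most with this animal, values without it are given below as well, though not for every gene named.

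The study compared Ts66Yah with wt mice within each region to find genes altered by the trisomy. In HIP, 0 of 10 members passed the threshold (edgeR, adjusted p under 0.05), against 0.591% of 18452 genes tested (0.439% higher and 0.152% lower in Ts66Yah), and 4 of 10 had a positive log2 fold change. In EC, 0 of 10 passed, against 0.283% of 17658 genes (0.272% higher and 0.0113% lower), and 7 of 10 were positive. Unadjusted p values under 0.05 were found for 1 member in each region, Asns in HIP (11.9% of all genes) and Ddit3 in EC (6.25%). The levels of the genotypes overlapped for all 10 members in both regions, whereas 1.94% of all genes in HIP and 0.900% in EC did not overlap. The median log2 fold change of the members was -0.03 in HIP and 0.08 in EC, beside 0.00 and -0.00 over all genes tested. Without Ts66Yah replicate 5, it was -0.04 in HIP and -0.02 in EC, and the number of positive members in EC went from 7 to 3.

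Among the transcription factors, Atf4 was measured at 70.2, 79.5, 93.8, 83.1 and 90.2 CPM in wt HIP, and in Ts66Yah HIP its lowest, median and highest values were 74.2, 81.7 and 122. The log2 fold change was 0.07 ± 0.12 (SE, adjusted p = 0.875), and -0.06 without replicate 5. In EC, wt values were 84.2, 85.4, 92.3, 67.6 and 103 CPM, and Ts66Yah values had a lowest of 74.5, a median of 84.8 and a highest of 160. The difference of 0.18 ± 0.18 (adjusted p = 0.967) went to -0.02 without replicate 5, so the positive value for Atf4 in both regions rested on that animal.

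Ddit3 had the smallest unadjusted p of the members in EC. Its wt values there were 27.6, 23.5, 25.9, 26.1 and 26.9 CPM, and the Ts66Yah values had a lowest of 20.0, a median of 22.1 and a highest of 25.4. Only the lowest wt animal overlapped with the Ts66Yah range. The log2 fold change was -0.22 ± 0.08, with a 95% interval from -0.38 to -0.05 (adjusted p = 0.621, edgeR), and -0.26 without replicate 5 (adjusted p = 0.312). In HIP, Ddit3 differed by -0.05 ± 0.07 (adjusted p = 0.855), with 20.5 ± 2.05 CPM (SD, n = 5) for wt mice and 19.8 ± 1.40 (SD, n = 6) for Ts66Yah mice. The genotype difference in Ddit3 therefore did not pass the threshold in either region. A second short gene entry of the same name (105 bases, wholly inside these exons) had 0 counts in all 22 libraries, and 68 bases of the exons are shared with Mars on the opposite strand.

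Among the output genes, Asns had the smallest unadjusted p of the members in HIP. Its wt values were 89.8, 92.9, 96.2, 91.8 and 84.7 CPM, and Ts66Yah values had a lowest of 93.2, a median of 98.7 and a highest of 111. The ranges overlapped between 93.2 and 96.2 CPM. The log2 fold change was 0.16 ± 0.06, with an interval from 0.04 to 0.28 (adjusted p = 0.281, edgeR), and 0.13 without replicate 5 (adjusted p = 0.334). In EC, wt mice averaged 128 ± 9.58 CPM (SD, n = 5) and Ts66Yah mice 145 ± 21.3 (SD, n = 6). That difference of 0.18 ± 0.09 (adjusted p = 0.868) was 0.09 without replicate 5. Asns was thus positive in both regions and did not pass the threshold in either.

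In HIP, Chac1 averaged 5.12 ± 0.767 CPM (SD, n = 5) for wt mice against 4.97 ± 1.54 (SD, n = 6) for Ts66Yah mice, a log2 fold change of -0.04 ± 0.18. Without replicate 5 the Ts66Yah HIP mean was 4.35 ± 0.273 CPM (SD, n = 5) and the difference -0.23. In EC, the difference was 0.19 ± 0.21, and -0.03 without that animal. The direction of Chac1 in EC thus turned with 1 animal. Sesn2 differed by -0.03 ± 0.09 in HIP and 0.02 ± 0.15 in EC, the latter being -0.14 without replicate 5. Trib3, which in HIP averaged 0.333 ± 0.0959 CPM (SD, n = 5) for wt mice and 0.258 ± 0.110 (SD, n = 6) for Ts66Yah mice, had differences of -0.39 ± 0.32 in HIP and -0.30 ± 0.31 in EC, and -0.55 and -0.52 without replicate 5 (adjusted p = 0.524 and 0.668). Its intervals were the widest of the members, from -1.07 to 0.29 in HIP, so changes of that size were not detectable at this depth.

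Among the phosphatase subunits, Ppp1r15a differed by -0.02 ± 0.09 in HIP and 0.04 ± 0.11 in EC, and Ppp1r15b by 0.05 ± 0.05 and 0.12 ± 0.06. In HIP, Ppp1r15b averaged 65.1 ± 3.50 CPM (SD, n = 5) for wt mice and 66.9 ± 4.09 (SD, n = 6) for Ts66Yah mice. Of its exon bases, 11.4% are shared with Gm26616 on the opposite strand, and whether the counting used strand is not given in the sources used here. Among the kinases, Eif2ak3 differed by -0.05 ± 0.05 in HIP and -0.03 ± 0.06 in EC. Of its exon bases, 8.05% are shared with Gm43292 on the opposite strand. Eif2ak4 differed by 0.01 ± 0.05 in HIP and 0.19 ± 0.12 in EC, and the EC value was 0.26 without replicate 5 (adjusted p = 0.454), since that animal had the lowest Eif2ak4 level.

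**Figure D3:**
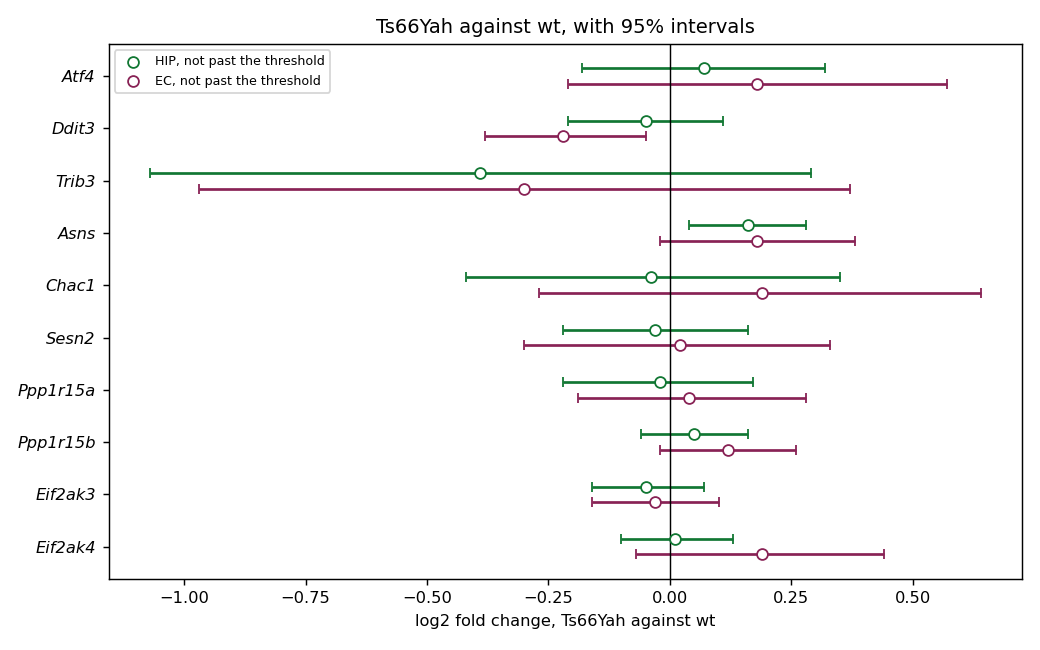
Log2 fold change of Ts66Yah against wt (horizontal axis) for the 10 members in HIP (green) and EC (purple red), with 95% intervals from edgeR; open points did not pass the adjusted threshold. All 20 points are open, and the intervals of Asns in HIP and Ddit3 in EC, which are not adjusted for the number of genes, exclude 0.

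The intervals bound how large a change could have been missed. The widest room was left for a lower level of Trib3, whose 95% intervals reached down to 0.476-fold in HIP and 0.509-fold in EC. The upper limits were highest for Chac1, at 1.27-fold in HIP and 1.56-fold in EC, followed by Atf4 with 1.24-fold and 1.48-fold. Without Ts66Yah replicate 5 the upper log2 limits of Chac1 went from 0.35 to 0.02 in HIP and from 0.64 to 0.30 in EC, and those of Atf4 from 0.32 to 0.09 and from 0.57 to 0.23. The highest were then Asns in HIP (0.24) and Eif2ak4 in EC (0.47). For Eif2ak3 the upper limits with all animals were 1.05-fold and 1.07-fold. With HIP and EC counts summed per animal, again 0 of 10 members passed (0.573% of 20233 genes, 0.455% higher and 0.119% lower), and 2 had an unadjusted p under 0.05 (10.3% of all genes), the smallest p values being those of Asns (log2 fold change 0.16, adjusted p = 0.454) and Ddit3 (-0.14, adjusted p = 0.463). Without Ts66Yah replicate 5 the sums gave 0.10 for Asns and -0.17 for Ddit3. The difference of the genotype effect between regions was tested directly. It passed for 0 members and for 0% of 19074 genes with edgeR, for 0 genes with DESeq2 also, and 388 genes (2.03%) but 0 members had an unadjusted p under 0.05. The largest of these differences was 0.22 ± 0.30 for Chac1. This fit had no term for the animal, and with the animal as a block 0 members and 0 genes passed too.

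The animal numbers in the labels fall into 2 ranges, with wt replicate 1 in neither. Within the first range (2 wt and 2 Ts66Yah mice, replicate 5 among them) and the second (2 wt and 4 Ts66Yah mice), the log2 difference of Asns in HIP was 0.13 and 0.18, and that of Ddit3 in EC was -0.11 and -0.26. For Atf4 in EC it was 0.56 and -0.05, so the sign differed between the ranges.

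The wider pathway was followed in lists chosen for known roles. None of the 17 genes of the eIF2 machinery passed in HIP or EC, with median log2 fold changes of -0.03 in each. The largest were Gcn1l1, the GCN2 activator GCN1, at -0.11 and Eif2b4 at -0.10 in HIP, and Eif2ak2, the kinase PKR, at 0.21 and Eif2b3 at -0.16 in EC. Eif2b3 and Eif2b4 encode subunits of the exchange factor that phosphorylated eIF2 inhibits. None of the 34 tested ATF4 and CHOP targets passed, with medians of 0.02 and 0.01 (0.02 and -0.03 without replicate 5). Among them Bbc3, which encodes the BH3-only protein PUMA, had -0.54 ± 0.18 in HIP (adjusted p = 0.252) and Ddit4, an mTORC1 inhibitor, -0.45 ± 0.14 (adjusted p = 0.208). In EC, Stc2, a secreted glycoprotein, had 0.55 ± 0.23 (adjusted p = 0.744) and Eif4ebp1, a translation repressor, -0.40 ± 0.22 (adjusted p = 0.871). The EC level of Stc2 was highest in replicate 5, at 2.80 CPM against 0.906 to 1.90 in the others. The 20 tRNA synthetases had medians of 0.02 and 0.03 (0.02 and -0.01 without replicate 5) and 0 genes past the threshold. The largest were Farsa at -0.13 in HIP and -0.24 in EC (adjusted p = 0.416), Mars at -0.10 in HIP and Vars at 0.12 in EC. The unfolded protein response, whose other arms run beside PERK, had 0 of 25 genes past the threshold and medians of 0.00 and 0.01 (0.00 and -0.02 without replicate 5). Its largest values were Sdf2l1 (-0.49 ± 0.14, adjusted p = 0.168) and Sec61b (-0.30 ± 0.11, adjusted p = 0.304) in HIP and Creld2 (0.16) and Sec61b (-0.15) in EC. In the animal sums the largest were Bbc3 (-0.43), Eif4ebp1 (-0.39), Sdf2l1 (-0.26), Sec61b (-0.22), Farsa (-0.17), Eif2b2 and Eif2b3 (-0.11 each) and Mars (-0.08), and 0 passed.

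Activity-regulated genes were followed because they are immediate responses to neuronal firing and handling. In HIP 8 of 14 and in EC 14 of 14 were positive, with medians of 0.14 and 0.70 (0.06 and 0.41 without replicate 5), and 0 passed the threshold in either region. The summed level overlapped between genotypes in EC, with 236 to 799 CPM in wt and 312 to 1565 in Ts66Yah mice. Ts66Yah replicates 1, 5 and 6 had 1002, 1565 and 1345 CPM there, and replicates 2, 3 and 4 had 483, 312 and 340. Egr2 had 1.31 ± 0.62 in HIP (adjusted p = 0.433) and 1.49 ± 0.69 in EC (adjusted p = 0.797). Arc had 0.53 ± 0.32 in HIP and Fos 1.44 ± 0.60 in EC (adjusted p = 0.735), and in the animal sums Egr2 had 1.39 and Fos 1.11. No gene of the 8 lists of cell type and region markers passed the threshold between genotypes. All 10 microglial markers were negative in both regions, with medians of -0.12 in HIP and -0.13 in EC. Some lay next to 0 in HIP, with Csf1r and C1qb at -0.00 and C1qa and Siglech at -0.01. The summed microglial level was 372 to 481 CPM in wt and 353 to 441 in Ts66Yah HIP, and 455 to 661 and 466 to 566 in EC. The 10 meningeal markers were all positive in HIP (median 0.18), and 1 of 10 was positive in EC (median -0.37). Their part in the member values was not tested.

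Regions were compared within each genotype, so that the wt and Ts66Yah comparisons rest on different animals. The fits had no term for the animal, although HIP and EC came from the same mice. In wt mice, 5 of 10 members passed the threshold, 3 higher and 2 lower in EC, against 47.7% of 17935 genes tested (23.4% higher and 24.3% lower, and 54.1% with an unadjusted p under 0.05). In Ts66Yah mice, 6 of 10 passed, 4 higher and 2 lower, against 54.0% of 18043 genes (26.4% higher and 27.5% lower, and 58.7% unadjusted). The members' shares were thus near those of all genes. The sign was the same in both genotypes for 9 of 10 members, compared with 89.3% of all genes tested in both.

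Asns was the most clearly higher in EC. Its values in wt EC were 112, 129, 138, 131 and 129 CPM, all above the wt HIP values of 84.7 to 96.2. The log2 fold change was 0.51 ± 0.06 (1.42-fold, adjusted p = 1.89e-05) in wt and 0.52 ± 0.09 (1.43-fold, adjusted p = 0.000158) in Ts66Yah mice, where the regions did not overlap either. Over all genes, the regions did not overlap for 35.0% in wt and 32.1% in Ts66Yah mice. Chac1 was higher in EC by 0.56 ± 0.17 (1.48-fold, adjusted p = 0.0141) in wt and 0.78 ± 0.22 (1.71-fold, adjusted p = 0.00702) in Ts66Yah mice. Its wt values overlapped, with 4.23 to 6.06 CPM in HIP and 5.20 to 10.3 in EC, and without wt replicate 3 its call was lost (adjusted p = 0.0706). Ddit3 was higher in EC by 0.36 ± 0.08 (adjusted p = 0.00215) in wt and 0.19 ± 0.07 (adjusted p = 0.0392) in Ts66Yah mice. The Ts66Yah call for Ddit3 held in 1 of 6 fits that left out 1 animal (highest adjusted p = 0.119), the one without replicate 2.

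Eif2ak4, the GCN2 gene, was the member lowest in EC relative to HIP. Its wt values were 24.3, 24.5, 23.7, 27.0 and 24.8 CPM in HIP and 16.4, 16.4, 14.6, 16.1 and 14.3 in EC, with no overlap. The log2 fold change was -0.65 ± 0.07 (0.636-fold, adjusted p = 1.09e-05) in wt and -0.48 ± 0.10 (0.716-fold, adjusted p = 0.000914) in Ts66Yah mice. Sesn2 was lower in EC by -0.48 ± 0.09 on the log2 scale (adjusted p = 0.000518) in wt and -0.44 ± 0.14 (adjusted p = 0.0143) in Ts66Yah mice. Its wt values did not overlap, with 18.3 to 21.2 CPM in HIP and 12.0 to 16.3 in EC, but in Ts66Yah mice they did, because replicate 5 had 21.6 CPM in EC. The Ts66Yah call for Sesn2 was lost without replicate 1 and without replicate 2 (highest adjusted p = 0.0727). Eif2ak3 passed in Ts66Yah mice (0.14 ± 0.05, adjusted p = 0.0312) and had 0.13 ± 0.06 in wt (adjusted p = 0.101). Its Ts66Yah call held in 2 of 6 fits that left out 1 animal, those without replicates 2 and 6 (highest adjusted p = 0.116).

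The remaining members did not pass between regions. Atf4 had 0.07 ± 0.10 in wt and 0.18 ± 0.18 in Ts66Yah mice. The output genes did not move together: Asns and Chac1 passed higher in EC, Sesn2 passed lower and Trib3 did not pass. Ppp1r15a had -0.20 ± 0.11 and -0.14 ± 0.09, Ppp1r15b -0.02 ± 0.05 and 0.05 ± 0.06, and Trib3 0.46 ± 0.28 and 0.54 ± 0.34. With the animal as a block, the same 5 and 6 members passed. Leaving out 1 Ts66Yah animal at a time left 3 to 5 members past the threshold in Ts66Yah mice, the 3 being Asns, Chac1 and Eif2ak4 without replicate 1.

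**Figure D4:**
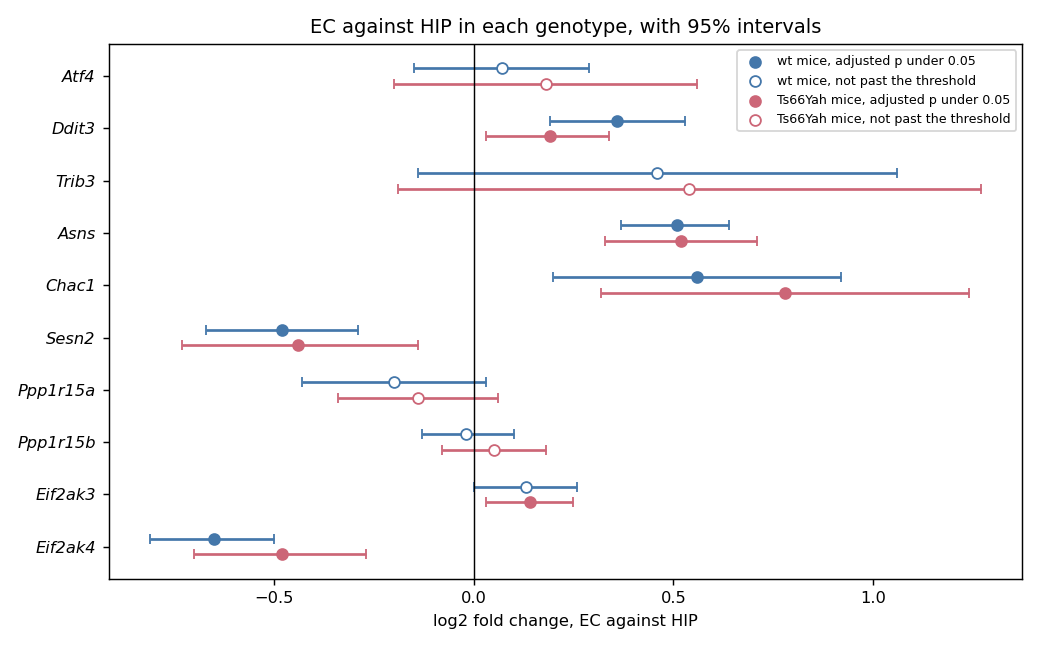
Log2 fold change of EC against HIP (horizontal axis) for the 10 members in wt (blue) and Ts66Yah mice (red), with 95% intervals from edgeR; filled points have an adjusted p under 0.05. Asns and Chac1 lie to the right and Sesn2 and Eif2ak4 to the left of 0 in both genotypes.

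The wider pathway was compared between regions in wt mice in the same way, beside the 47.7% of all genes that passed. The share past the threshold was 47.1% of the eIF2 machinery, 50.0% of the tRNA synthetases, 48.0% of the unfolded protein response and 35.7% of the activity-regulated genes, near or below that of all genes, and 67.6% of the ATF4 and CHOP targets. Of 17 genes of the eIF2 machinery, 6 were higher and 2 lower in EC, led by Impact, an inhibitor of GCN2 activation, at 0.63 ± 0.07 (adjusted p = 7.92e-06), and Ppp1ca, a catalytic subunit of protein phosphatase 1, at 0.48 ± 0.07 (adjusted p = 5.34e-05). Eif2b5, a subunit of the eIF2 exchange factor, was higher by 0.27 ± 0.06. Of 34 ATF4 and CHOP targets, 12 were higher and 11 lower, so they did not move together. The cationic amino acid transporter Slc7a3 was higher by 1.89 ± 0.13 (3.27 CPM in HIP, 11.9 in EC), the neutral amino acid transporter Slc1a4 by 0.63 ± 0.07, and Stc2 was lower, at -1.51 ± 0.14. Of 20 tRNA synthetases, 9 were higher and 1 lower, led by Gars (0.41 ± 0.05), Aars (0.39 ± 0.06) and Hars (0.35 ± 0.05). In the unfolded protein response, 10 of 25 were higher and 2 lower. Xbp1, its main transcription factor, was higher by 0.59 ± 0.07, Dnajc10, a disulfide reductase, by 0.56 ± 0.07, and Ern1, which encodes the sensor IRE1, was lower, at -0.44 ± 0.07. Of 14 activity-regulated genes, 4 were higher and 1 lower, among them Fosb (0.78 ± 0.14), Dusp1 (1.14 ± 0.29) and Egr2 (2.02 ± 0.63).

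Cell composition differed between the dissections in the same comparison. In wt mice, all 10 oligodendrocyte markers were lower in EC (median -2.14), with a summed level of 7549 to 11205 CPM in HIP and 1444 to 3594 in EC. All 10 choroid plexus markers were lower (median -4.56), as were all 8 markers of hippocampal neurons (median -3.42), whereas all 8 cortical markers were higher (median 1.67). Microglial markers were higher for 5 of 10, endothelial for 6 of 10 and meningeal for 7 of 10, with 1 meningeal gene lower, and astrocyte markers were higher for 4 and lower for 2 of 10. The part of these differences in the region values of the members was not tested.

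Covariation between animals was described after the mean of each genotype had been removed. Among 45 pairs of members in each region, 0 of 90 correlations over 11 animals passed the adjusted threshold (permutation test), for Pearson's r or Spearman's rho. The median r was 0.04 in HIP and 0.35 in EC, and the EC median was 0.03 without Ts66Yah replicate 5. Between HIP and EC of the same animal, all 10 members had a positive r, with a median of 0.61, but 0 passed after adjustment over the 10. Chac1 came closest (r = 0.90, rho = 0.85, p = 0.00618, adjusted p = 0.0618, permutation test, over 11 animals), followed by Atf4 (r = 0.79, rho = 0.47, p = 0.0355, adjusted p = 0.0886, permutation test). Leaving out the 2 animals whose HIP level lay farthest from the median, r was 0.28 and rho 0.27 for Atf4, and r was 0.55 and rho 0.73 for Chac1. Leaving out extremes narrows the range and by itself tends to lower a correlation. These values therefore cannot tell whether a relation rested on the animals left out. Without Ts66Yah replicate 5 alone, r was 0.34 and rho 0.48 for Atf4, and r was 0.74 and rho 0.66 for Chac1.

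**Figure D5:**
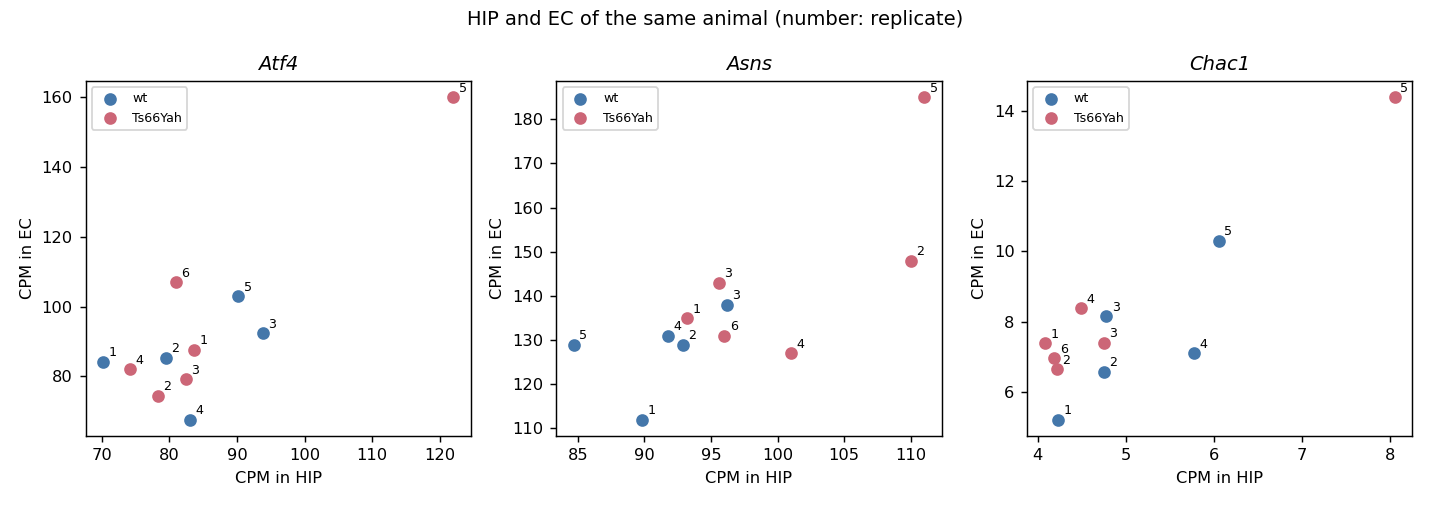
CPM in EC (vertical axis) against HIP (horizontal axis) of the same animal for Atf4, Asns and Chac1, 1 point per animal with its replicate number, wt in blue and Ts66Yah in red; axes do not start at 0. Ts66Yah replicate 5 lies at the upper right in each panel, at 122 and 160 CPM for Atf4, 111 and 185 for Asns, and 8.06 and 14.4 for Chac1.

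The genes most like Atf4 over the 22 libraries, by Pearson correlation of log2 CPM after the 4 group means had been removed, were Dut (r = 0.92), BC003965 (0.91) and Fam43a (0.89), out of 14963 genes averaging 1 CPM or more. Without Ts66Yah replicate 5, the values were 0.88, 0.86 and 0.79. Among the members, Atf4 correlated with Chac1 by 0.78, with Sesn2 by 0.77 and with Asns by 0.54. Without that animal these values were 0.39, 0.45 and -0.18, while that for Ppp1r15a went from 0.53 to 0.68. The genes most like Ddit3 were Slc15a4 (0.82), Sparcl1 (0.78) and Kctd1 (0.77). HIP and EC libraries of an animal are not independent, and library depth and quality are shared by all genes of a library, so these values are descriptions.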

How the data were processed

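RNA-Seq was performed on HIP and EC of 11 male mice. Groups, replicate and animal numbers came from the labels. Following the study's methods, reads were aligned with Hisat2 to GRCm38 and assigned to Ensembl genes with HTSeq-count. The labels name poly(A) selection in a stranded kit and the methods a ribosomal RNA depletion kit, and the strand setting and multi-mapping rule of the counting are not given in the sources used here. The submitters' processing notes name bcl2fastq 2.17.1.14 and DESeq2. The authors deposited 1 table of raw gene counts covering the 22 libraries, which was used as deposited, with 0 unmapped columns. They also deposited DESeq2 and FCROS tables of their own comparisons (fold changes and p-values), which were not used.

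Of 55385 identifiers, 55144 matched GENCODE M21 (GRCm38). CPM (counts per M) used TMM factors, with a prior count of 2 on the log2 scale. Tests were edgeR 4.0.16 quasi-likelihood fits (R 4.3.3) with filterByExpr on the groups compared, with Benjamini-Hochberg adjustment across all genes tested and a threshold of 0.05. p-values measure the spread between these animals. The scripts were tested on simulated data. Correlations used 100000 permutations, two-sided. Intervals are 95% and not adjusted. The members, lists and rules were chosen with earlier results of these data known. All members were named, and from each pathway list up to 3 genes past the threshold with the smallest p, or otherwise the 2 with the largest change. Genes such as those highest in 1 animal were named after their values had been seen.

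Alternatives were DESeq2 1.42.0, limma voom 3.58.1, RLE factors, no filter, at least 1 CPM in 5 samples, all 22 libraries in one fit, blocks, and leaving out each animal. HIP and EC of the same number came from 1 animal (the labels give the same animal number), and their deviations correlated by 0.21 to 0.45. The animal was therefore a true pair in region comparisons. The main region and interaction fits did not use this pairing. Their SE and p values, also with 1 animal left out, treat HIP and EC of an animal as separate samples. The animal block was run only as an alternative. Litters are not given. Replicates are separate animals.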

Additional observations from a re-analysis of the deposited data

Results flagged for a closer look

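Within 40 groups (10 members in 4 groups), the extreme sample lay apart from its group by more than Dixon's 95% critical value in 6, where chance alone gives about 1 in 20 groups. 5 of the 6 were Ts66Yah replicate 5, always as the highest of its group: Atf4 in HIP at 122 CPM, Chac1 in HIP at 8.06 CPM, and in EC Asns at 185 CPM, Chac1 at 14.4 CPM and Sesn2 at 21.6 CPM. These groups are not independent, since all 5 values came from 1 animal. The other was Trib3 in wt HIP, where replicate 3 was highest at 0.500 CPM, a value that rests on 25 reads.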

How the results depend on the processing

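No member passed the threshold between genotypes in HIP, EC, the animal sums or the interaction under DESeq2, voom, RLE factors, both other filters, the blocks, or without any single animal. In wt mice the same 5 members passed between regions under every alternative except leaving out wt replicate 3 (range 4 to 5). In Ts66Yah mice, the count ranged from 3 to 5 when 1 animal was left out and was 4 without a filter on low counts, where Ddit3 (adjusted p = 0.0557) and Eif2ak3 (adjusted p = 0.0595) were lost. The number of members whose HIP and EC levels correlated past the threshold was 1 (Ppp1r15b, r = 0.94) without the 2 animals farthest from the median, 6 by Pearson's r without removal of the genotype mean, and 0 without Ts66Yah replicate 5, an alternative chosen after seeing the data.

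Over all genes, DESeq2 called 357 in HIP, 107 in EC and 350 in the animal sums, against 109, 50 and 116 with edgeR, and the fit over all 22 libraries called 79 in EC. Same-numbered wt and Ts66Yah mice share only a number: their deviations correlated by -0.01 to 0.06 in HIP and 0.02 to 0.19 in EC, and 0 of 5 wt libraries in HIP and 3 of 5 in EC correlated best with their own number. The replicate block called 61, 39 and 67 genes and the block by range of animal numbers 68, 38 and 84, with 0 members each. The animal block in region comparisons and in the interaction changed no call of a member.

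Among values near 0, the sign turned for Eif2ak4 in HIP (-0.00) and Ppp1r15a in the animal sums (-0.01) with the range block, and for Sesn2 in EC (-0.02) and in the animal sums (-0.02) with voom. Leaving out 1 animal at a time turned the sign of log2 fold changes that did not pass the threshold. The ranges in HIP were Atf4 -0.06 to 0.11, Chac1 -0.23 to 0.03, Sesn2 -0.09 to 0.00, Ppp1r15a -0.07 to 0.03 and Eif2ak4 -0.01 to 0.04. The ranges in EC were Atf4 -0.02 to 0.24, Chac1 -0.03 to 0.32, Sesn2 -0.14 to 0.08 and Ppp1r15a -0.01 to 0.12. The ranges in the animal sums were Atf4 -0.04 to 0.17, Chac1 -0.12 to 0.19, Sesn2 -0.08 to 0.04 and Ppp1r15a -0.03 to 0.08. The ranges for the interaction were Trib3 -0.02 to 0.27, Asns -0.03 to 0.06, Sesn2 -0.07 to 0.15, Ppp1r15a -0.00 to 0.11 and Eif2ak3 -0.00 to 0.03. In these turns and in the Ts66Yah region calls the cause was not tested.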

Other observations

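The ATF4-type letters TTNCATCA or TGATGNAA were also counted in the promoter windows of the other lists. They stood in 8 of 27 ATF4 and CHOP targets with a window (29.6%), among them Atf3, Nupr1, Pycr1 and Slc7a11, and in 5 of 12 tRNA synthetases (41.7%), Aars, Gars, Iars, Tars and Yars. In the unfolded protein response 1 of 21 genes with a window held them (Herpud1, 4.76%), in the eIF2 machinery 1 of 13 (Eif2s3x, 7.69%) and in the activity-regulated genes 0 of 11. The share of all genes with a window was 4.51%. The lists were chosen for known roles, so these shares are descriptions.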
